A study of Mus musculus with 10 samples.

Results

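Chemokines are small secreted or membrane-anchored proteins that steer the movement of leukocytes, and their receptors are G protein-coupled receptors on the cells that respond. The genes described here are all those with a symbol starting in Ccl, Cxcl, Cx3cl, Xcl, Ccr, Cxcr, Cx3cr, Xcr or Ackr followed by a digit, among genes with a probe set that names only them. That rule gave 56 of the 22180 genes measured, 34 ligands and 22 receptors, on arrays of portal tracts from mouse liver at 1 week of age. The portal tract is the tissue around the branches of the portal vein, hepatic artery and bile duct. The 5 control arrays came from mice labelled control, strain C57Bl/6J, and the other 5 from mice heterozygous for Jag1 and Rfng (Jag1+/-Rfng+/-), whose strain is not labelled. Jag1 is a membrane ligand that activates Notch, and Rfng is a fringe enzyme that adds sugar to Notch. Each array held RNA from 12 to 20 tracts cut by laser from frozen sections. The study set these groups side by side to look at remodelling and differentiation of the tract. What kind of mutation either allele carries was not stated in the labels.

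The family is divided by the spacing of conserved cysteines near the start of the protein into the CC, CXC, XC and CX3C classes. A few ligands, such as Cxcl12, are made steadily by stroma and hold or guide blood progenitors, while most others are switched on by inflammatory signals and draw in neutrophils, monocytes or lymphocytes. The 4 atypical receptors (Ackr1 to Ackr4) bind chemokines without starting the usual G protein signal and mostly take up and remove them. The liver of a newborn mouse still holds blood-forming cells, and the tract contains bile duct, vessels, portal fibroblasts and leukocytes.

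All values below are signals on the log2 scale, so a difference of 1 is a 2-fold difference in signal. Array medians lay between 3.22 and 3.30. The Jag1+/-Rfng+/- array of replicate 5 stood apart, correlating with the other arrays at 0.956 to 0.963, against 0.969 to 0.987 among the other 9, and its sample name carries the suffix excl without explanation. It was kept, and differences of the members with an unadjusted p under 0.05 (limma) are given with and without it. No label says that the samples are separate mice, and the p-values therefore reflect only how these samples vary, which may be technical. Of the targeted genes, Rfng read 4.61 to 5.13 in controls and 4.19 to 4.57 in Jag1+/-Rfng+/-, and Jag1 4.59 to 6.59 and 3.68 to 5.06. Defining markers of the tract were present: 4 of 5 cholangiocyte and 6 of 7 portal fibroblast markers lay above the limit described next, as did 6 of 6 hepatocyte markers. Of the blood cell lists, 9 of 9 neutrophil and 9 of 9 macrophage markers lay above it, 3 of 5 T cell, 3 of 4 B cell, 4 of 5 NK cell and 4 of 5 dendritic cell markers, and 0 of 5 mast cell markers. In such mixed tissue, fewer cells of a type and less RNA per cell cannot be told apart.

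Both ligands and receptors read above background. To judge presence, each group's mean was set against the 95th percentile of 1394 olfactory and vomeronasal receptor genes, which belong to sensory neurons; that limit was 3.10 in controls and 3.16 in Jag1+/-Rfng+/-. Above it in both groups lay 21 of 34 ligands (61.8%) and 10 of 22 receptors (45.5%), beside 57.8% of all genes. By class these were 13 of 19 CC and 6 of 13 CXC ligands, the single CX3C and XC ligands, 2 of 10 CC receptors, 4 of 6 CXC receptors, the CX3C receptor and 3 of 4 atypical receptors. On every one of the 10 arrays 26 members exceeded the limit, and 16 did so on none. Another 1 member, Cxcl2, exceeded it in Jag1+/-Rfng+/- alone. Probe sets differ in brightness, so the order of genes by signal is not an order of abundance. With the 99th percentile as the limit, 9 of 34 ligands and 5 of 22 receptors stayed above it in controls. With the highest reading of absent sex-linked genes, 2.91, as the limit, these were 21 of 34 and 13 of 22, and the difference between the shares of ligands and receptors was not tested.

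**Figure D1:**
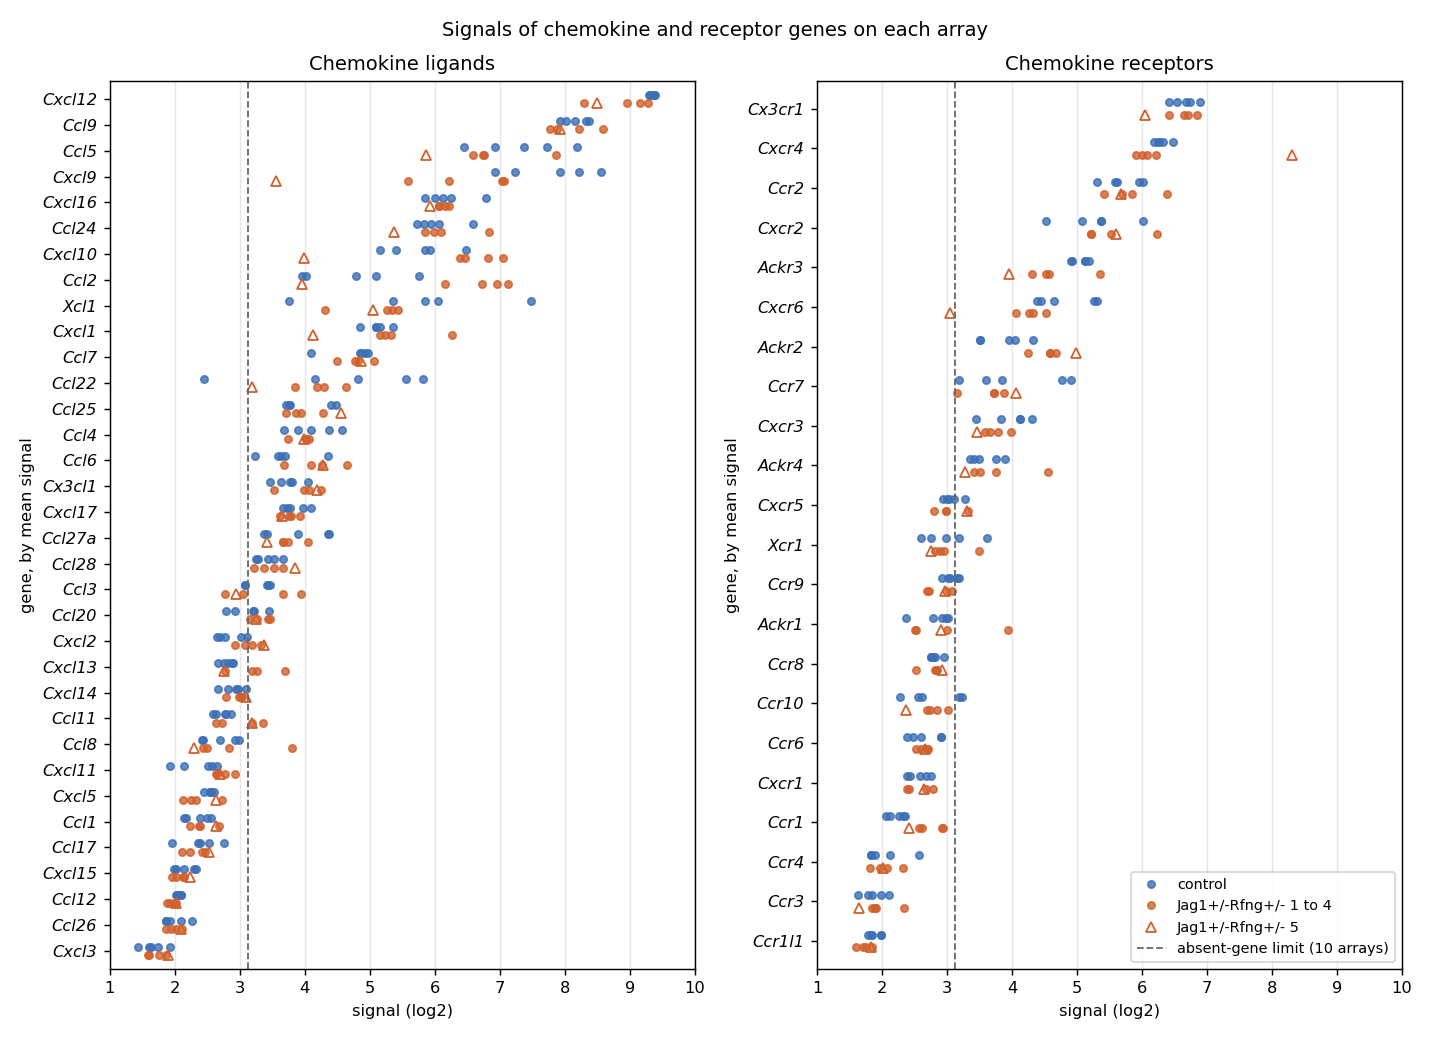
Signal (log2, x axis) of each ligand (left) and receptor (right) gene on every array, genes ordered by mean; filled circles are control (blue) and Jag1+/-Rfng+/- replicates 1 to 4 (orange), open triangles Jag1+/-Rfng+/- replicate 5, and the dashed line is the limit over 10 arrays, 3.12. Cxcl12 and Ccl9 lead the ligands and Cx3cr1 and Cxcr4 the receptors, while Cxcl9 on replicate 5 (3.55) and Cxcr4 on replicate 5 (8.30) lie far from the other arrays.

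The most strongly read ligands were Cxcl12, Ccl9, Ccl5, Cxcl9, Cxcl16, Ccl24, Cxcl10 and Ccl2, with means over the 10 arrays between 5.45 and 9.09, in falling order. The leading receptors were Cx3cr1, Cxcr4, Ccr2, Cxcr2, Ackr3, Cxcr6, Ackr2 and Ccr7, between 3.88 and 6.59. Receptors of monocytes and macrophages (Cx3cr1, Ccr2), of neutrophils (Cxcr2) and of progenitors and many leukocytes (Cxcr4) thus read above the limit on all arrays. Among receptors of T, NK or dendritic cells, Cxcr3, Cxcr6 and Ccr7 had means above that limit in both groups. Means did not reach it in either group for Ccr3 of eosinophils, Ccr4 and Ccr8 of T helper subsets, and Cxcr5 of follicular B cells. The same held for Ccr6, Ccr9 and Ccr10 of mucosal and skin-homing lymphocytes, and for Xcr1 of cross-presenting dendritic cells. Some arrays still exceeded it for Cxcr5 (2 control, 2 Jag1+/-Rfng+/-), Xcr1 (2 control, 1 Jag1+/-Rfng+/-), Ccr9 and Ccr10 (2 control each). Cxcr1, Ccr1 and its paralogue Ccr1l1 also lay below it, as did Ackr1, which read above it on 1 of 10 arrays.

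Between genotypes, 0 of the 56 members passed an adjusted p of 0.05 in limma's test across all genes, in which 0.00902% of genes passed; the lowest adjusted p among members was 0.332, for Ackr2. At an unadjusted p under 0.05 stood 10 members (17.9%), beside 6.76% of all genes. These were Ccl2, Ccl6, Cxcl2, Cxcl11, Ackr2 and Ccr1, which read higher in Jag1+/-Rfng+/- (2.98% of all genes stood there), and Cxcl9, Cxcl12, Ackr3 and Cxcr6, which read lower (3.79%). Only 7 of the 10 lay above the limit in both groups. The groups did not overlap for 2 members (3.57%), beside 1.38% of all genes: Cxcl12, which read lower as 0.766% of all genes did without overlap, and Ccr1, which read higher as 0.618% did. Of all members 28 read higher and 28 lower, and 48.5% of all genes read higher. Among ligands 18 read higher and 16 lower with a median difference of 0.02, and among receptors 10 read higher and 12 lower with a median of -0.01, beside -0.01 over all genes. The spread of differences was wider for ligands, from -1.88 to 1.46, than for receptors, from -0.76 to 0.75, a description without a test.

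**Figure D2:**
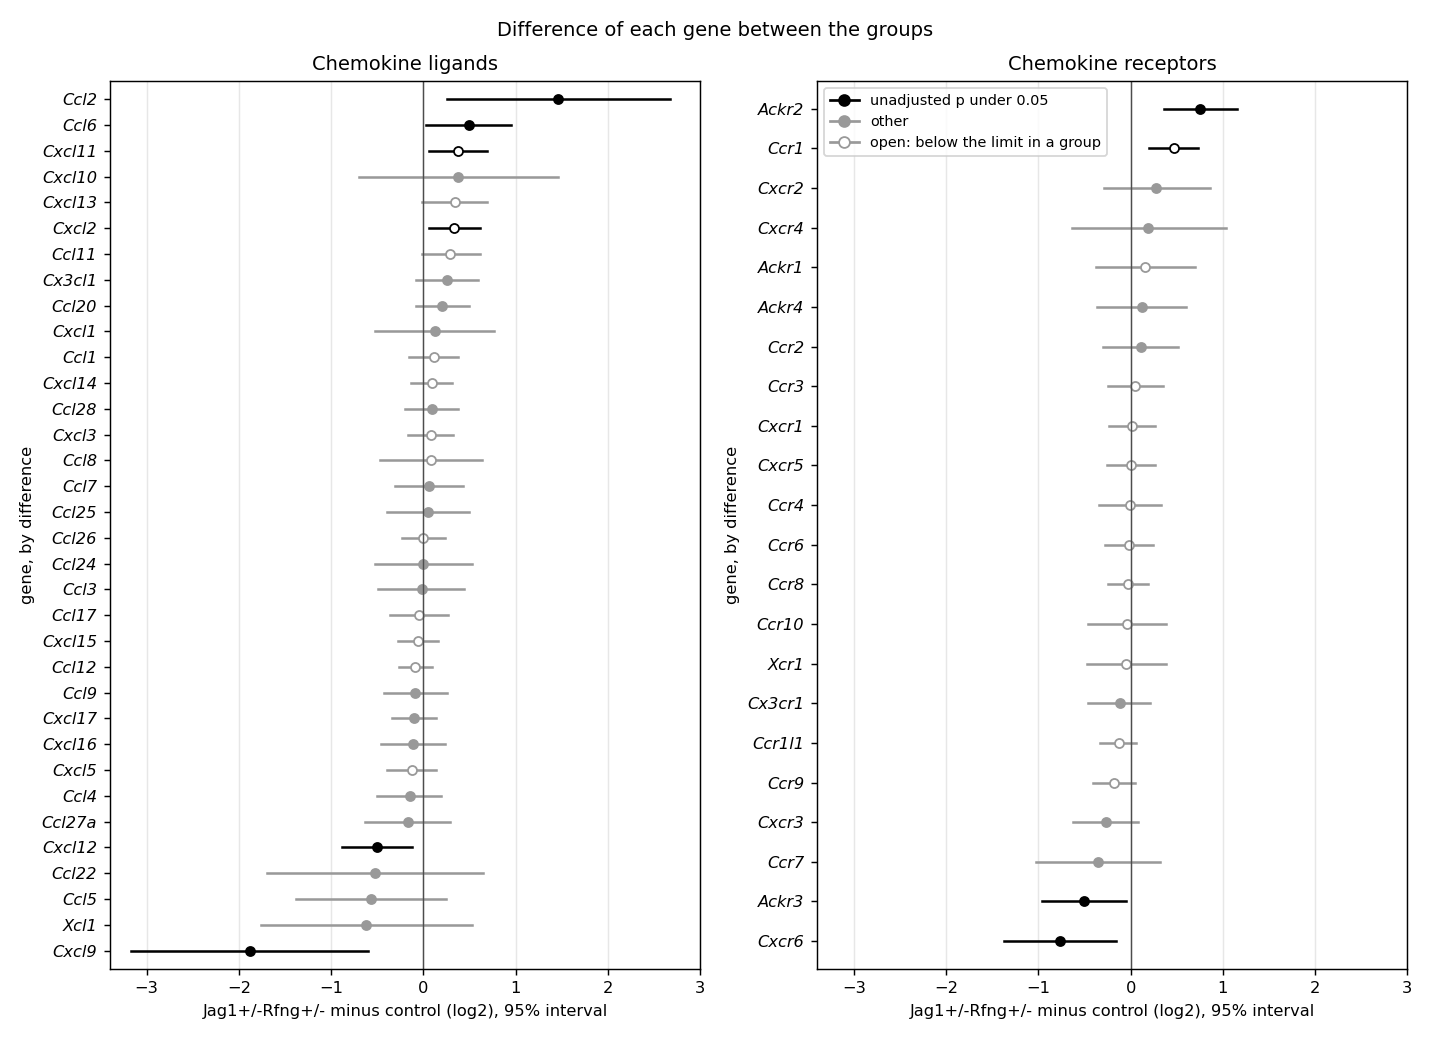
Difference of Jag1+/-Rfng+/- minus control (log2, x axis) for each ligand (left) and receptor (right), with limma's 95% interval as a bar; black marks an unadjusted p under 0.05, and open circles mark genes below the limit in at least 1 group. Most genes lie close to 0, with Cxcl9 (-1.88) and Ccl2 (1.46) at the ends of the ligands and Cxcr6 (-0.76) and Ackr2 (0.75) at the ends of the receptors.

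Cxcl9, an interferon-induced ligand that draws T and NK cells bearing Cxcr3, showed the widest gap between the groups. It read 7.93, 8.55, 8.22, 7.23 and 6.93 on controls 1 to 5 and 7.03, 5.59, 7.06, 6.22 and 3.55 on Jag1+/-Rfng+/- replicates 1 to 5 (probe set 17449710, chromosome 5). The mutant values are lower as a group, but replicates 1 and 3 lie above the lowest control. The means were 7.77 ± 0.68 and 5.89 ± 1.44 (SD, n = 5 each), a difference of -1.88 ± 0.59 (SE; 95% interval -3.17 to -0.60), 3.69-fold lower (limma unadjusted p = 0.00782, adjusted p = 0.546; exact permutation p = 0.0238, two-sided). Without replicate 5, where Cxcl9 was lowest, it was 2.46-fold lower (-1.30; limma adjusted p = 0.511; exact permutation p = 0.0476). Within the 7 arrays whose sample names share a number, 3 control and 4 Jag1+/-Rfng+/-, the difference was -2.40 (exact permutation p = 0.0571, where 0.0286 is the smallest such a split can give).

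Cxcl10, another interferon-induced ligand of Cxcr3, showed another pattern. It read 5.92, 5.40, 5.84, 6.48 and 5.15 in controls and 7.05, 6.46, 6.39, 6.81 and 3.99 in Jag1+/-Rfng+/- (probe set 17449718). On replicates 1 to 4 Cxcl10 was thus at or above most controls, and on replicate 5 below all of them. The difference was 0.38 ± 0.50 (SE, limma adjusted p = 0.903), and 0.92 without replicate 5 (1.89-fold higher; limma adjusted p = 0.467; exact permutation p = 0.0317). Cxcl11, the remaining interferon-induced ligand of this receptor, read 1.92 to 2.65 in controls and 2.64 to 2.93 in Jag1+/-Rfng+/-, below the limit on all arrays (difference 0.38 ± 0.15, SE, limma unadjusted p = 0.0234). The Cxcl11 difference was 0.39 without replicate 5 (limma unadjusted p = 0.032). Cxcr3, the receptor of these ligands, read 3.45 to 4.31 in controls and 3.46 to 3.98 in Jag1+/-Rfng+/-, a difference of -0.27 with overlapping groups (limma adjusted p = 0.796).

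On each array, Cxcl9 minus Cxcl10 was 2.01, 3.16, 2.39, 0.75 and 1.78 in controls and -0.02, -0.88, 0.67, -0.58 and -0.43 in Jag1+/-Rfng+/-. The groups did not overlap, and replicate 5 lay among the other Jag1+/-Rfng+/- arrays on this measure although both of its signals were the lowest. The difference between groups was -2.27, and -2.22 without replicate 5. The pair was chosen after its values were seen, so these values are a description, with no test.

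**Figure D3:**
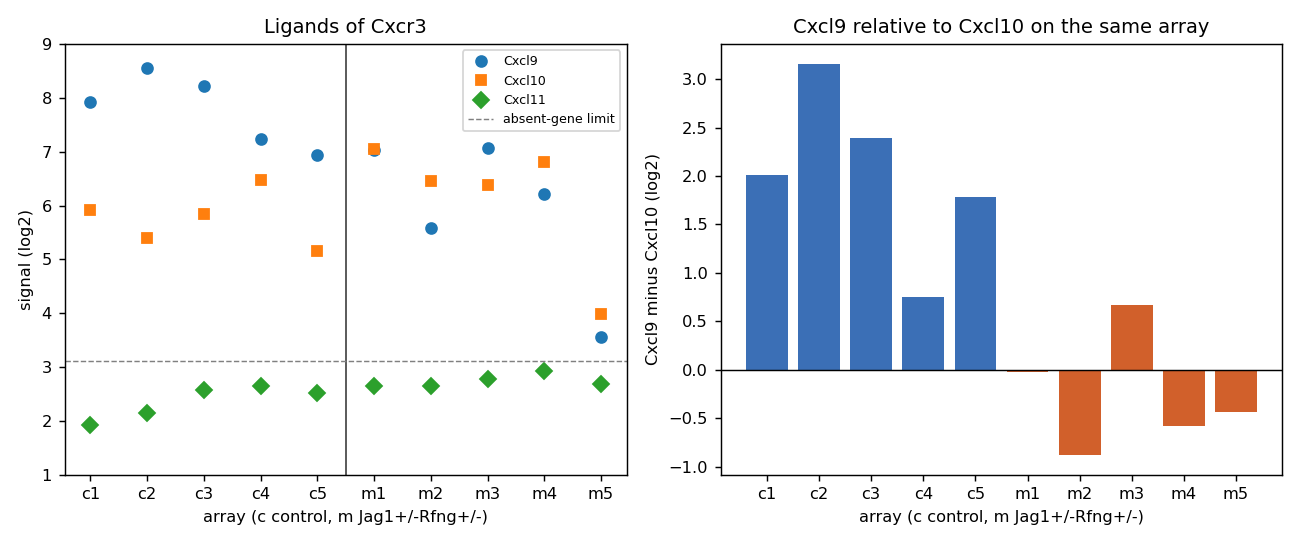
Left, signal (log2) of Cxcl9, Cxcl10 and Cxcl11 on each array (c1 to c5 control, m1 to m5 Jag1+/-Rfng+/-) with the limit over 10 arrays as a dashed line; right, Cxcl9 minus Cxcl10 on the same array (bars from 0). The difference is 0.75 to 3.16 on control arrays and -0.88 to 0.67 on Jag1+/-Rfng+/- arrays.

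The starts of Cxcl9 and Cxcl10 lie 20810 bases apart on chromosome 5 in GRCm38.p6, on the same strand. Their upstream sequences are shown because these nearby genes, whose products act on the same receptor, had different values across the arrays. Each run is the 250 bases before the gene's start from RefSeq, 5′ to 3′ on the gene's own strand, and capitals mark matches to an NF-kB consensus or to an interferon-stimulated response element, searched on both strands; a gamma-activated site (TTCNNNGAA) was searched as well.
Cxcl9, chr5:92328080-92328329, minus strand: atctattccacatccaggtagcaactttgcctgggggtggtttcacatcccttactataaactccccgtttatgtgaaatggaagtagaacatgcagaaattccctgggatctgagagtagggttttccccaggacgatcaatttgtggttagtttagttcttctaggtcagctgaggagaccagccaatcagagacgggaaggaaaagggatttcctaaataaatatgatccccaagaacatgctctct
Cxcl10, chr5:92348890-92349139, minus strand: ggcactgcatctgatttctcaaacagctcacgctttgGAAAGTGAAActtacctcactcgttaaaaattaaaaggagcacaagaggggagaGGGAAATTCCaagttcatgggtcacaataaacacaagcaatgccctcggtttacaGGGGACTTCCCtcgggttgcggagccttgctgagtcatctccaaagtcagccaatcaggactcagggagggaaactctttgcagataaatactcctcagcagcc
In Cxcl10 the interferon element runs from 213 to 204 bases before the start, and the NF-kB matches from 159 to 150 and, overlapping each other, from 104 to 94. The Cxcl9 window held no match to these letters. An NF-kB match was found upstream of 7 of the 23 ligands (30.4%) and 4 of the 19 receptors (21.1%) that the promoter table lists, beside 8.23% of 27025 genes. The ligands were Ccl9, Cxcl10, Cxcl1, Ccl20, Cxcl2, Ccl1 and Cxcl3, and the receptors Ackr2, Ccr6, Ccr1 and Ccr3. A gamma-activated site stood upstream of 2 ligands (8.70%) and 2 receptors (10.5%), beside 8.13% of all genes, and an interferon element upstream of 2 ligands (8.70%) and 0 receptors, beside 3.46%. A match is a run of letters, not a site in use, and the lack of a match to these fixed letters does not show that a site is absent.

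Ccl2, the main attractant of Ccr2-bearing monocytes, read higher on 4 of the 5 Jag1+/-Rfng+/- arrays than on any control. Its signals were 5.75, 3.96, 4.01, 5.09 and 4.78 in controls and 6.95, 6.72, 6.16, 7.12 and 3.96 in Jag1+/-Rfng+/- (probe set 17254041, chromosome 11). Replicate 5 alone lay at the lowest control. The means were 4.72 ± 0.75 and 6.18 ± 1.30 (SD, n = 5 each), a difference of 1.46 ± 0.56 (SE; 95% interval 0.25 to 2.67), 2.76-fold higher (limma unadjusted p = 0.0219, adjusted p = 0.632; exact permutation p = 0.0714). Without replicate 5 the groups no longer overlapped and the difference was 4.06-fold (2.02; limma unadjusted p = 0.000111, adjusted p = 0.147; exact permutation p = 0.0159). Within the arrays of shared number it was 1.63 (exact permutation p = 0.171). Among macrophages, which can make Ccl2, 8 of 9 markers read higher. Their list averaged 6.54 to 7.22 in controls and 6.37 to 7.80 in Jag1+/-Rfng+/-, highest on replicate 1 and lowest on replicate 5. On controls 2 and 4 it averaged 7.14 and 7.22, and on Jag1+/-Rfng+/- replicates 3 and 4 it averaged 7.06 and 7.13. The part of macrophage content in the Ccl2 values was not tested.

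Ccl7, Ccl8 and Ccl12, which lie in the same gene run as Ccl2, had no unadjusted p under 0.05 by limma. Ccl7, the neighbour of Ccl2 in the gene order, read 4.09 to 4.97 in controls and 4.49 to 5.07 in Jag1+/-Rfng+/- (difference 0.06 ± 0.17, SE, 95% interval -0.31 to 0.43). By mean, Ccl8 and Ccl12 lay below the limit in both groups, at differences of 0.08 and -0.09. The exact permutation p of Ccl12 was 0.0159, at means of 2.05 and 1.97. Ccl2 minus Ccl7 on the same array was -0.02 ± 0.95 (SD, n = 5) on control arrays and 1.38 ± 1.33 (SD, n = 5) on Jag1+/-Rfng+/- arrays, a pair also chosen after its values were seen and not tested. Ccr2, the receptor of Ccl2 on inflammatory monocytes, read 5.30 to 6.01 and 5.41 to 6.38, a difference of 0.11 ± 0.19 (SE, limma adjusted p = 0.937).

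The atypical receptor Ackr2, which removes inflammatory CC chemokines including Ccl2, had the lowest limma p of the family. It read 4.33, 3.50, 3.51, 4.05 and 3.95 in controls and 4.25, 4.68, 4.59, 4.59 and 4.99 in Jag1+/-Rfng+/- (probe set 17523371, chromosome 9). Of the Jag1+/-Rfng+/- arrays 4 lay above all controls, and replicate 1 lay just under the highest control. The means were 3.87 ± 0.36 and 4.62 ± 0.26 (SD, n = 5 each), a difference of 0.75 ± 0.18 (SE; 95% interval 0.36 to 1.15), 1.68-fold higher (limma unadjusted p = 0.00134, adjusted p = 0.332; exact permutation p = 0.0159). Without replicate 5 it was 0.66 (limma adjusted p = 0.467; exact permutation p = 0.0238), and within the arrays of shared number 1.03 (exact permutation p = 0.0286). Lymphatic endothelium is a known site of Ackr2. The endothelial list, which covers endothelium in general and does not measure lymphatic vessels alone, averaged 6.92 to 7.22 in controls and 7.08 to 7.47 in Jag1+/-Rfng+/-. The part of endothelial content in the Ackr2 values was not tested.

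Cxcl12, the ligand of Cxcr4 and the most strongly read member, read lower on every Jag1+/-Rfng+/- array. It read 9.35, 9.31, 9.38, 9.37 and 9.29 in controls, a very narrow span, and 8.30, 9.28, 8.96, 9.16 and 8.49 in Jag1+/-Rfng+/- (probe set 17462149, chromosome 6). Jag1+/-Rfng+/- replicate 2 lay just under the lowest control, and replicates 1 and 5 were furthest below. The means were 9.34 ± 0.04 and 8.84 ± 0.43 (SD, n = 5 each), a difference of -0.50 ± 0.17 (SE; 95% interval -0.88 to -0.12), 1.41-fold lower (limma unadjusted p = 0.0143, adjusted p = 0.609; exact permutation p = 0.00794). Without replicate 5 the difference was -0.41 (exact permutation p = 0.00794), and within the arrays of shared number -0.38 (exact permutation p = 0.0857).

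Its removing receptor Ackr3 also read lower on 4 of 5 Jag1+/-Rfng+/- arrays. Ackr3 read 5.12, 4.93, 5.18, 5.12 and 4.90 in controls and 4.31, 4.57, 4.52, 5.36 and 3.96 in Jag1+/-Rfng+/- (probe set 17215605, chromosome 1). Replicate 4 was the highest of all 10 arrays and the rest lay below every control. The difference was -0.51 ± 0.21 (SE, limma unadjusted p = 0.0317, adjusted p = 0.690, exact permutation p = 0.0635). It was -0.36 without replicate 5 (exact permutation p = 0.127). With 1 array left out at a time, it ranged from -0.71 to -0.36. The -0.71 came without replicate 4, the array that read against the rest, and is a description with no test. Both Cxcl12 and Ackr3 are made by stromal and vessel cells. The portal fibroblast list, with 6 of 7 markers lower, averaged 6.25, 6.50, 6.67, 5.25 and 5.77 in controls and 4.77, 5.60, 4.99, 5.76 and 4.18 in Jag1+/-Rfng+/-. The endothelial list, with 5 of 7 markers higher, averaged 6.92 to 7.22 in controls and 7.08 to 7.47 in Jag1+/-Rfng+/-. The smooth muscle list, with 3 of 4 markers lower, averaged 4.93 to 6.47 and 4.72 to 7.15. The part of fibroblast or vessel content in the Cxcl12 and Ackr3 values was not tested.

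Cxcr4, the signalling receptor of Cxcl12 on progenitors and leukocytes, was even across arrays except for replicate 5. It read 6.19, 6.26, 6.48, 6.25 and 6.33 in controls and 6.00, 6.22, 6.07, 5.91 and 8.30 in Jag1+/-Rfng+/- (probe set 17226593, chromosome 1). With all arrays the difference was 0.19 ± 0.38 (SE, limma adjusted p = 0.946), and without replicate 5 it turned to -0.26 (limma unadjusted p = 0.0325, adjusted p = 0.752; exact permutation p = 0.0238). The erythroid list averaged 7.89 on that array against 5.33 to 6.13 on the other 9. Its part in the Cxcr4 signal was not tested.

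Cxcl16, a membrane-anchored ligand, and its receptor Cxcr6, carried by T and NKT cells of the liver,, differed in their values. Cxcl16 read 5.84 to 6.78 in controls and 5.92 to 6.22 in Jag1+/-Rfng+/-, a difference of -0.11 ± 0.16 (SE, limma adjusted p = 0.917). Cxcr6 read 4.64, 5.30, 5.26, 4.39 and 4.44 in controls and 4.52, 4.06, 4.26, 4.33 and 3.04 in Jag1+/-Rfng+/- (probe set 17523642, chromosome 9). All but replicate 1 lay below every control. The difference was -0.76 ± 0.28 (SE; 95% interval -1.37 to -0.16), 1.70-fold lower (limma unadjusted p = 0.0179, adjusted p = 0.618; exact permutation p = 0.0317). Without replicate 5, whose value lay under the limit, it was -0.51 (exact permutation p = 0.0873), and within the arrays of shared number -1.06 (exact permutation p = 0.0286).

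Of 5 T cell markers 4 read lower beside Cxcr6, with Cd4 under the limit in both groups and Cd3d in Jag1+/-Rfng+/- alone. Their list averaged 3.34 to 4.65 in controls and 2.98 to 3.75 in Jag1+/-Rfng+/-. The 4.65 was on control 1, where Cd3g read 7.82 against 3.64 to 4.42 on the other controls. The next highest control average was 4.14. The NK cell list averaged 3.81 to 4.31 and 3.78 to 4.48. The part of T cell content in the values of Cxcr6, Cxcl9 or Ccl5 was not tested.

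**Figure D4:**
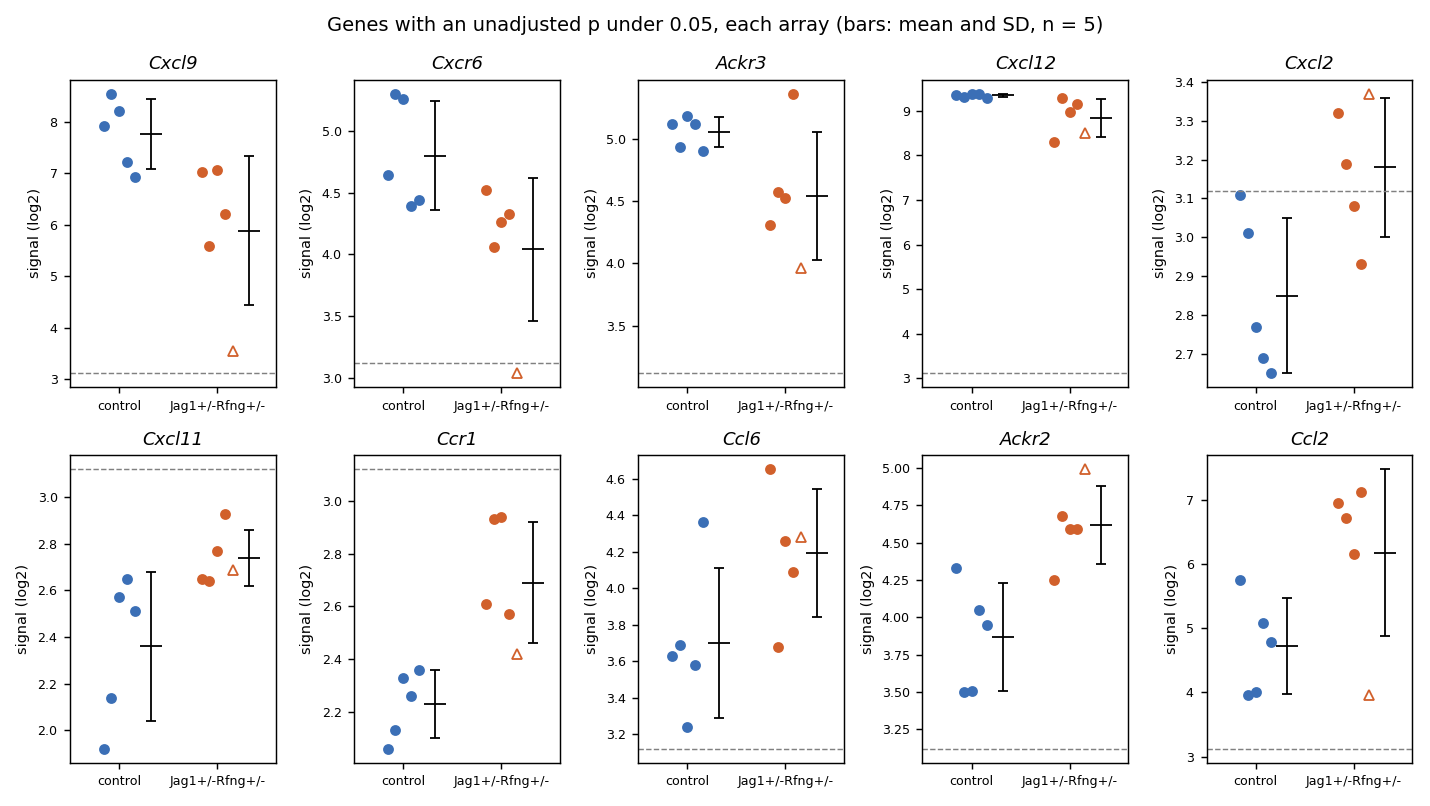
Signal (log2, y axis, scaled to each gene and not starting at 0) of the 10 genes with an unadjusted p under 0.05 on each control (blue) and Jag1+/-Rfng+/- (orange) array, with replicate 5 as an open triangle, mean and SD as bars (n = 5 each) and the limit over 10 arrays as a dashed line. Cxcl12 and Ccr1 are the only 2 without overlap, and Ccr1 and Cxcl11 lie wholly below the limit.

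The ligands of Cxcr2 draw neutrophils. Cxcl1, which acts through Cxcr2, read 4.84 to 5.35 in controls and 4.12 to 6.26 in Jag1+/-Rfng+/- (difference 0.12, limma adjusted p = 0.961). Cxcl2, of the same receptor, read 3.11, 3.01, 2.77, 2.69 and 2.65 in controls and 3.32, 3.19, 3.08, 2.93 and 3.37 in Jag1+/-Rfng+/-. These values straddle the limit, with a difference of 0.33 ± 0.13 (SE, limma unadjusted p = 0.0213, adjusted p = 0.628). It was 0.28 without replicate 5 (limma unadjusted p = 0.0509). Cxcl3, Cxcl5 and Cxcl15 lay below the limit in both groups. Cxcr2 read 4.52 to 6.02 and 5.21 to 6.23, a difference of 0.28 ± 0.26 (SE, limma adjusted p = 0.868). Cxcr2 was lowest on control 4 (4.52), where the neutrophil list averaged 7.20 against 7.12 to 7.94 over all arrays. On control 5, which had the lowest list average (7.12), Cxcr2 read 5.07. The part of neutrophil content in the Cxcr2 values was not tested.

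Several CC ligands act on myeloid cells, among them Ccl9, Ccl6 and Ccl3. Ccl9, made by myeloid cells of mice, read 7.93 to 8.37 in controls and 7.77 to 8.59 in Jag1+/-Rfng+/- (difference -0.09 ± 0.16, SE, limma adjusted p = 0.941). Its relative Ccl6 read 3.63, 3.69, 3.24, 3.58 and 4.36 in controls and 4.65, 3.68, 4.26, 4.09 and 4.28 in Jag1+/-Rfng+/- (probe set 17266960, chromosome 11). Control 5 and Jag1+/-Rfng+/- replicate 2 cross over, and the difference was 0.49 ± 0.21 (SE, 1.41-fold, limma unadjusted p = 0.0385, adjusted p = 0.698, exact permutation p = 0.103). It was 0.47 without replicate 5 (limma unadjusted p = 0.0661). Ccl5, released by T and NK cells, read 6.93, 7.72, 8.19, 6.44 and 7.37 in controls and 7.87, 6.74, 6.75, 6.58 and 5.87 in Jag1+/-Rfng+/-, overlapping widely (difference -0.57 ± 0.37, SE, limma adjusted p = 0.821). Ccl3 and Ccl4, early products of activated macrophages, differed by -0.02 and -0.15.

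The receptor Ccr1 read 2.06, 2.13, 2.33, 2.26 and 2.36 in controls and 2.61, 2.93, 2.94, 2.57 and 2.42 in Jag1+/-Rfng+/- (probe set 17532569, chromosome 9). The groups did not overlap, yet all 10 values lay below the limit, in the range of genes taken as absent. The difference was 0.47 ± 0.12 (SE, limma unadjusted p = 0.00259, adjusted p = 0.416, exact permutation p = 0.00794). It was 0.53 without replicate 5 (limma unadjusted p = 0.000911, adjusted p = 0.291).

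Some genes of dendritic cells and lymphocytes varied widely among the controls themselves. Ccl22, a dendritic cell ligand of Ccr4, read 4.16, 5.81, 5.56, 4.81 and 2.45 in controls and 4.18, 4.30, 4.63, 3.85 and 3.19 in Jag1+/-Rfng+/-. Ccr7, which guides dendritic cells and T cells to lymph nodes, read 3.60, 4.91, 4.77, 3.84 and 3.19 in controls and 3.16, 3.88, 3.72, 3.72 and 4.06 in Jag1+/-Rfng+/-. Xcl1, a product of NK and CD8 T cells, spanned 3.76 to 7.48 in controls and 4.31 to 5.43 in Jag1+/-Rfng+/-. Control spans of this size exceed the differences between the groups, -0.52 for Ccl22, -0.35 for Ccr7 and -0.62 for Xcl1 (limma adjusted p = 0.881, 0.865 and 0.861).

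Controls 2 and 3 were the 2 highest of all 10 arrays for Cxcl9, Cxcr6, Ccl22 and Ccr7, and the 2 lowest of the controls for Ccl2, at 3.96 and 4.01. On these arrays the dendritic cell list averaged 4.37 and 4.42 (3.75 to 4.10 on the other controls), the portal fibroblast list 6.50 and 6.67 and the cholangiocyte list 5.07 and 5.33, the highest values of both lists. What part these lists have was not tested. Among the 31 members above the limit in both groups, Jag1+/-Rfng+/- replicate 5 was the lowest array for 10 and replicate 1 the highest for 9.

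**Figure D5:**
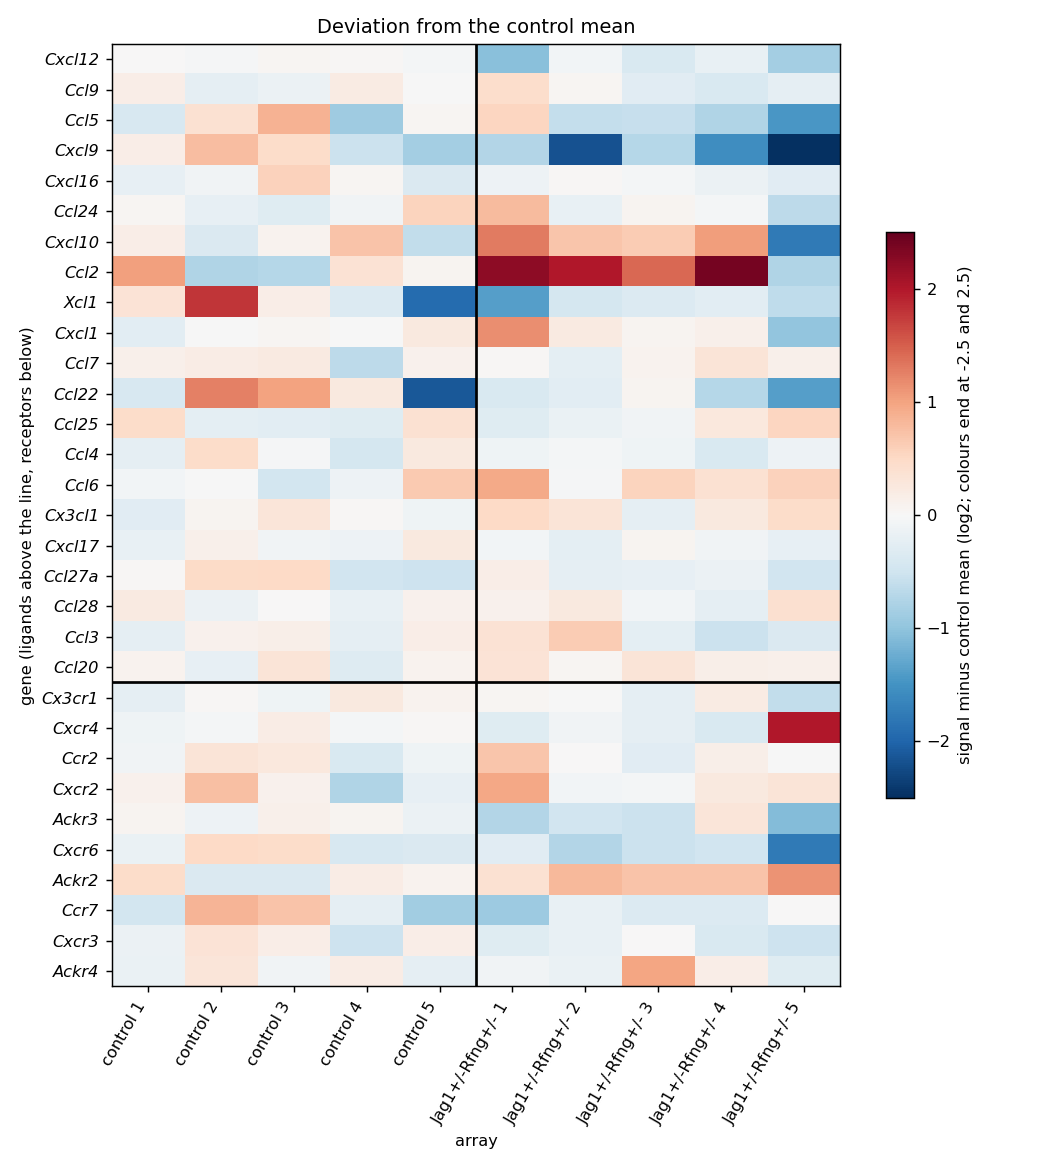
Signal minus the control mean (log2; red higher, blue lower, colours end at -2.5 and 2.5) of the 31 genes above the limit in both groups, ligands over receptors, on each array (x axis). Ccl2 is red on Jag1+/-Rfng+/- 1 to 4 and blue on 5, Cxcl9 is blue on all 5, and Cxcr4 stands out on replicate 5.

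The remaining members above the limit had unadjusted p over 0.05. Cx3cl1, a membrane-bound ligand of epithelium and endothelium, read 3.46 to 4.05 in controls and 3.52 to 4.24 in Jag1+/-Rfng+/- (difference 0.26, limma adjusted p = 0.793), and its receptor Cx3cr1 6.42 to 6.89 and 6.04 to 6.85 (difference -0.12, limma adjusted p = 0.901). Ccl24, an eosinophil attractant, read 5.72 to 6.58 and 5.37 to 6.83, with a difference of 0.00 (95% interval -0.52 to 0.53). Ccl25, Ccl28, Ccl20 and Cxcl17, mucosal ligands, differed by 0.05, 0.09, 0.20 and -0.10, with limma adjusted p of 0.819 to 0.978. Ccl27a, a skin ligand, differed by -0.17 on the brighter of its 2 probe sets (3.88 to 3.70), while the other read 2.28 and 2.58, below the limit. Ackr4, which removes ligands of Ccr7 and Ccr9, read 3.36 to 3.89 in controls and 3.27 to 4.56 in Jag1+/-Rfng+/- (difference 0.12, limma adjusted p = 0.942). By mean, Cxcl13, Cxcl14, Ccl11, Ccl8, Cxcl11, Cxcl5, Ccl1, Ccl17, Cxcl15, Ccl12, Ccl26 and Cxcl3 lay below the limit in both groups, with means over the 10 arrays of 1.71 to 2.97. Some Jag1+/-Rfng+/- arrays still exceeded it for Cxcl13 and Ccl11 (3 each) and Ccl8 (1), while no control array did.

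In the gene order, the 56 members lay on 11 chromosomes and 32 of them directly beside another member. Chromosome 11 held 12 ligands, chromosome 5 held 11 ligands and chromosome 9 held 13 receptors. In the run of 6 with Ccl2, Ccl7, Ccl11, Ccl12, Ccl8 and Ccl1, differences ran from -0.09 to 1.46. In the run of 6 with Cxcr6, Xcr1, Ccr1, Ccr1l1, Ccr3 and Ccr2 on chromosome 9, they ran from -0.76 to 0.47, while the adjacent Cxcl10 and Cxcl11 both differed by 0.38.

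Genes that act around the family had 0 calls at the adjusted threshold. Of 28 measured genes of signalling below the receptors, 16 read higher and 12 lower (median 0.08, beside -0.01 over all genes), and 5 had an unadjusted p under 0.05, beside 6.76% of all genes. These were Arrb2, the arrestin that ends receptor signalling (0.40), and the kinase gene Ptk2b (0.48), both higher, and the kinase gene Pik3cg (-0.26), the GTPase gene Rac1 (-0.34) and Rgs1, a brake on G proteins (-0.49), all lower; Rgs1 lay below the limit in Jag1+/-Rfng+/-. Of 23 inducers of chemokines measured, 15 read higher and 8 lower (median 0.11) with 0 at an unadjusted p under 0.05 by limma. The interferon and interleukin genes Ifng, Il6 and Il17a lay below the limit in both groups. By mean, the cytokine genes Il1a, Il1b and Tnf of the same list lay above it in both groups.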

How the data were processed

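The authors' deposited table holds log2 signals of 33649 probe sets on 10 arrays, from 1.08 to 12.47. Per the submitters' processing notes, RMA and Partek 6.6 were used; their steps are not described. Differences of dim genes are understated on this scale. Arrays' scanner files were not used here. The array annotation gave 23521 probe sets with 1 gene symbol; symbols were updated by Entrez identifier through the RefSeq table of GRCm38.p6 (23328 matched), and the probe set with the highest mean stood for a gene. Another 33 probe sets that name a chemokine gene together with other genes were not used. The build behind the annotation was not stated.

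The group difference was fitted with lmFit and eBayes of limma 3.58.1 (R 4.3.3), without covariates and with Benjamini-Hochberg adjustment over 22180 genes. An exact two-sided permutation test of each gene ran over all 252 splits of the arrays. The fit was checked on simulated data. The plot intervals are limma's 95% intervals. Members and gene lists were chosen with earlier results of these data known. Named in full were members with an unadjusted p under 0.05 or groups that do not overlap, and the 8 ligands and 8 receptors with the highest mean; others were named with their class or as the partner of a described member, after values were seen, and the within-array differences were added after values were seen. Of the members, 42 matched a promoter in the RefSeq table. A gene with several promoters counted as holding a motif if any did. Alternatives were leaving out each array, the 7 arrays of shared sample-name number, a replicate block, array weights, other eBayes settings, other normalization, other limits and averaging the probe sets of a gene. The table held 0 columns of no sample.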

Additional observations from a re-analysis of the deposited data

Results flagged for a closer look

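In 7 of the 112 groups of 5 arrays examined (56 genes, 2 groups each), 1 array lay far from the other 4 by the ratio of its gap to the group's range; about 5.6 would be marked by chance. On Jag1+/-Rfng+/- replicate 5 Cxcl10 read 3.99 (nearest other array 6.39) and Cxcr4 8.30 (nearest 6.22). On control replicate 4 Ccl7 read 4.09 (nearest 4.85) and Ccr8 2.96 (nearest 2.81). On Jag1+/-Rfng+/- replicate 4 Ccl4 read 3.74 (nearest 3.99) and Ccr8 2.52 (nearest 2.81). On Jag1+/-Rfng+/- replicate 1 Xcr1 read 3.49 (nearest 2.96). The values of Ccr8, and of Xcr1 on the other 4 arrays of its group, lie below the limit for absent genes.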

How the results depend on the processing

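Over 19 alternative settings, 0 members passed the adjusted threshold under any. At an unadjusted p under 0.05 stood 7 to 11 members, beside 5.48% to 7.60% of the genes in the same fit. The 7.60% came from the fit of genes above the limit only, in which 7 members stood there. Of 377 recomputed differences of the 20 named members, 364 kept their direction. Those that turned belonged to Ccl24, Cxcl16, Cxcr4 and Ccr2. Leaving out 1 array at a time gave -0.20 to 0.17 for Ccl24, -0.20 to 0.03 for Cxcl16, -0.26 to 0.34 for Cxcr4, -0.04 to 0.20 for Ccr2, and 2 to 4 members whose groups did not overlap, beside 2.08% to 2.52% of all genes. Ccl24 was -0.01 with median centring, Cxcr4 -0.05 with array weights, and Ccr2 -0.10 in the 7 arrays whose names share a number. In those arrays without replicate 5, a setting added after the data were seen, Cxcr4 was -0.27, Ccr2 -0.11 and the receptor median -0.10. Groups did not overlap for 7 members in the arrays of shared number and 13 without replicate 5 (7.0% and 11.2% of all genes, with fewer arrays), 1 with quantile normalization (1.34%) and 1 among genes above the limit (1.7%), where the ligand median was -0.02. With the 99th percentile as the limit, 9 ligands and 5 receptors were above it in controls and 10 and 4 in Jag1+/-Rfng+/-. Without replicate 5, 10 members stood at an unadjusted p under 0.05, of which 7 were the same genes. Replicate numbers share no stated source, and same-numbered arrays deviated together at -0.234 to 0.0611; with a replicate block 11 members stood at an unadjusted p under 0.05 and 0 at the adjusted one. Leaving out 1 array took the unadjusted limma p of Ccl2, Ccl6, Cxcl2, Cxcl11 or Ackr3 above 0.05 in at least 1 case each, and that of Cxcl9, Cxcl12, Cxcr6, Ackr2 or Ccr1 in 0. The exact permutation p passed 0.05 in some of these cases for Cxcl9 (to 0.0556), Cxcl12 (to 0.0556) and Cxcr6 (to 0.0873). In the arrays of shared number the limma p of Cxcl12 was 0.0752. The cause of these shifts was not tested. Array signals near the limit bound no fold.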

Other observations

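Some genes of the family have symbols outside the naming rule, and those given here were picked after their values were seen. Pf4, a CXC chemokine of platelets, read 5.90 ± 0.85 (SD, n = 5) on control arrays and 5.62 ± 0.90 (SD, n = 5) on Jag1+/-Rfng+/- arrays. Ppbp, another, read 7.07 ± 1.55 and 6.56 ± 1.86. Both lay above the limit in both groups with wide spread. Their differences were -0.29 and -0.51 (limma adjusted p = 0.928 and 0.937). The receptor-like gene Ccrl2 differed by -0.14 and the chemerin receptor gene Cmklr1 by 0.01. Dpp4, a peptidase that trims chemokines, differed by 0.13. Of 16 such related genes measured, 8 read higher and 8 lower, and 1 had an unadjusted p under 0.05: Sdc4, a heparan sulfate proteoglycan that can hold chemokines at the cell surface, read 8.37 ± 0.08 (SD, n = 5) on control arrays and 8.69 ± 0.09 (SD, n = 5) on Jag1+/-Rfng+/- arrays, with no overlap between groups (1.38% of all genes) and a limma adjusted p of 0.443.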
